A study of Caenorhabditis elegans with 13 samples.

Results

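Glutathione S-transferases join the tripeptide glutathione to reactive compounds, which makes these compounds more soluble and ready for export from the cell. Nematodes carry a large family of cytosolic enzymes named gst, together with the omega class (gsto), which acts through a cysteine and can also reduce oxidised thiols, and the kappa class (gstk), which works in organelles. Several family members are known in C. elegans for their induction by oxidative stress through the transcription factor SKN-1, and gst-4 is the usual reporter of that response. Here the family was taken as all genes whose symbol in the array annotation is gst, gsto or gstk followed by a number. By this rule 45 of the 17118 genes with a probe set of their own were members. The family was chosen by the log2 fold changes of gst-31 and gst-4 between muscle and reference in these same samples, which differ in sign at 0 hr and have the same sign at 24 hr, so the values of its members are given as a description and carry no test of their own.

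RNA was profiled on 13 Affymetrix C. elegans arrays. The M24 arrays (n = 3) hold muscle cells sorted after dissociated embryos had spent 24 hr in culture. The R24 arrays (n = 4) hold all viable cells sorted after 24 hr in culture. The paper credits R24 to 4 independent experiments of an earlier study. In any comparison that uses R24, cell type and experiment therefore cannot be told apart. The M0 arrays (n = 3) hold muscle cells sorted at 0 hr, directly after dissociation of embryos, and the R0 arrays (n = 3) hold all viable cells of the same stage. Muscle cells came from strain PD4251, in which the integrated transgene ccIs4251 drives GFP from the myo-3 promoter in body wall muscle and in the anal depressor and sphincter muscles. The labels give the reference as wild type N2, although the growth protocol that all samples share also names adults carrying myo-3::GFP. If the reference was N2, strain and cell type cannot be told apart in any comparison of muscle with reference. The reference contains muscle cells too. A lower level in such bulk samples can come from fewer cells of a type or from less RNA per cell, and these cannot be told apart.

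The labelled cell type was checked against 10 muscle genes, of which 9 were called raised in M24 against R24 and 10 in M0 against R0. Their summed intensity was 7129 to 15529 on M24 arrays and 2518 to 3709.9 on R24 arrays, and it was 11487 to 17759.5 on M0 arrays and 2815 to 4434 on R0 arrays. Squared correlations of replicate arrays were 0.797 to 0.959 for M24, 0.944 to 0.971 for R24, 0.904 to 0.944 for M0 and 0.908 to 0.957 for R0. The lowest of these come from M24 replicate 3, which stood apart from the other M24 arrays. Values are the linear intensities of robust multiarray analysis (RMA), and array medians were 49.2 to 58.0. The probe sets of 15 members lay above the array median on all 13 arrays, and those of 7 members lay above it on none, so that these 7 give little signal to compare. Intensities of the 2 times come from separate normalizations. Muscle was therefore compared with the reference of its own time, and levels at 24 hr were not set against levels at 0 hr.

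A gene was called raised or lowered in muscle if its Benjamini-Hochberg adjusted p, taken over all 22548 probe sets, was under 0.05 and its level differed at least 1.7-fold. In M24 against R24, 5 of 45 members were called raised, where 2.43% of all genes were, and 6 were called lowered, where 6% of all genes were. In M0 against R0, 2 members were called raised (3.95% of all genes) and 11 were called lowered (8.27% of all genes). The difference of enrichment, which is M24 less R24 minus M0 less R0 on the log2 scale, was called higher for 6 members (1.04% of all genes) and lower for 1 (0.952% of all genes). These contrasts were used in choosing the family, so nothing is read from the shares. The median log2 fold change of the 45 members was 0.16 at 24 hr, beside 0.10 over all genes, and -0.34 at 0 hr, beside 0.10 over all genes. The members ranged from -2.33 to 2.32 at 24 hr and from -3.70 to 1.57 at 0 hr, and 26 of 45 were above 0 at 24 hr and 29 below 0 at 0 hr. For the difference of enrichment the median was 0.45, beside 0.00 over all genes, and 33 of the 45 were above 0.

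The 20 members called in a comparison of muscle with reference fell into a few patterns. Lowered at both times were 4, gst-10, gst-12, gst-30 and gst-40. Another 7 were lowered at 0 hr and not called at 24 hr, namely gst-5, gst-6, gst-16, gst-31, gst-33, gst-38 and gst-39. Only at 24 hr were gst-7 and gst-19 called lowered and 5 members called raised, which were gst-2, gst-3, gst-4, gsto-2 and gsto-3. Called raised at 0 hr were gst-22 and gstk-2. A call at one time and none at the other does not show that the times differ, and for this the difference of enrichment is given with each gene.

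**Figure D1:**
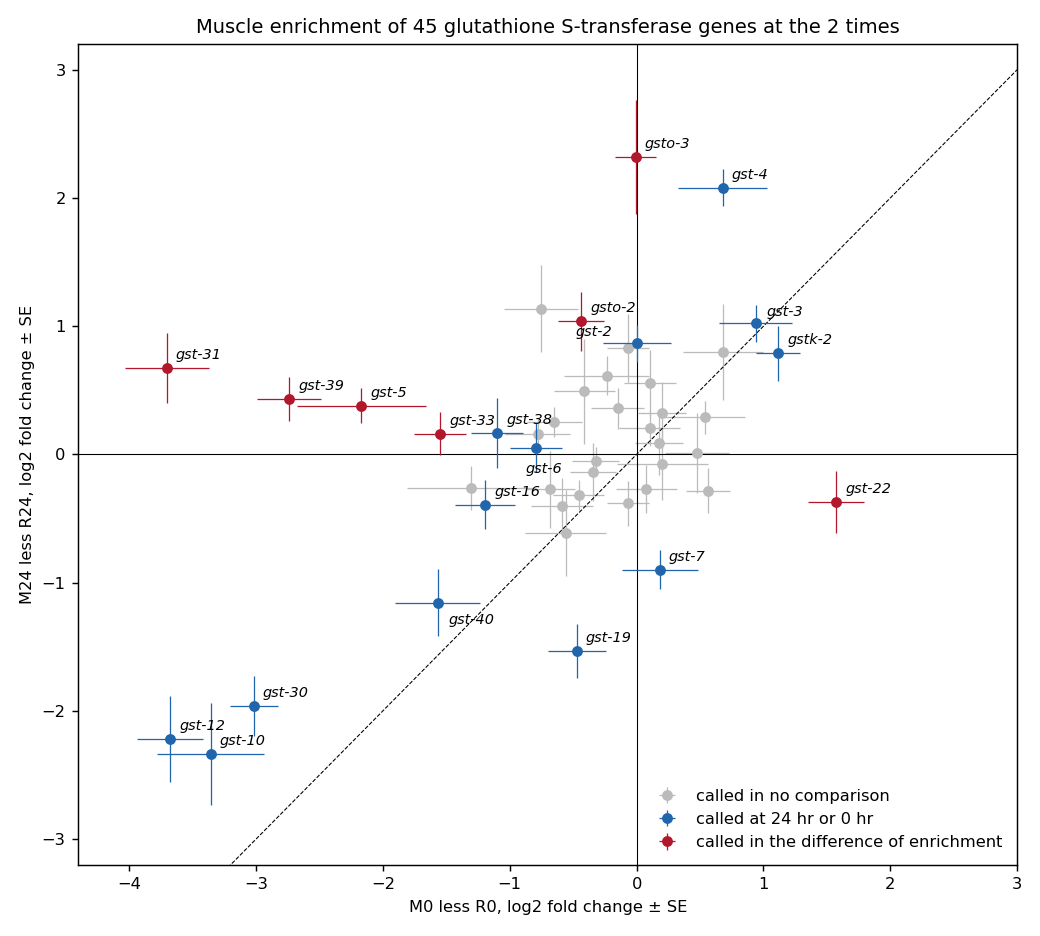
Log2 fold change of muscle over reference for the 45 glutathione S-transferase genes, M24 less R24 on the vertical axis and M0 less R0 on the horizontal axis, with bars of 1 SE, and with the dashed line marking equal enrichment. Points called in the difference of enrichment are red, with gst-31, gst-39, gst-5, gst-33, gsto-2 and gsto-3 above the line and gst-22 below it, while gst-10, gst-12, gst-30 and gst-40 are low at both times.

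The widest gap between the 2 times was that of gst-31 (Y53F4B.35). Its intensity was 1425, 1481 and 1273 on the M24 arrays, against 1344, 827, 929 and 563 on the R24 arrays. On the M0 arrays it was 115, 44.9 and 103, against 1197, 947 and 1035 on the R0 arrays. The groups overlapped at 24 hr, where R24 replicate 1 lay within the M24 range, and were far apart at 0 hr, where every M0 array was dim. The log2 fold change was 0.67 ± 0.27 (SE) at 24 hr, which was not called, and -3.70 ± 0.33 at 0 hr, a level 13.02-fold lower in M0. There were 2 scan days that held both an M0 and an R0 array. The first held replicate 1 of each, and the second held M0 replicate 2 and R0 replicate 3. Within these days the difference was -3.38 and -4.53, each from 1 array per group. The difference of enrichment was 4.37 ± 0.47, and its call was kept under each of the 19 alternatives of that fit.

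The family member next to gst-31 in chromosomal order is gst-39 (Y53F4B.33), one of the brightest probe sets of the family. Its intensity was 5529, 6424 and 6714 in M24, against 6059, 4185, 3929 and 4495 in R24. In M0 it was 1379, 707 and 1138, against 7554, 6432 and 6795 in R0. Again the groups overlapped at 24 hr and every M0 array lay below every R0 array. The log2 fold change was 0.43 ± 0.17 at 24 hr and -2.74 ± 0.25 at 0 hr (-2.45 and -3.27 within scan days), and the difference of enrichment was 3.17 ± 0.32, also called under each of 19 alternatives. Among the members gst-39 was the one most like gst-31 over the 13 arrays, with a Pearson r of 0.98 for log2 values centred within each time. Centring within time leaves the difference between muscle and reference in the values, so a shared fold change raises r. These arrays are the ones that led to the choice of the family, and the r is a description.

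The next most like gst-31 were gst-33 (r = 0.93) and gst-5 (r = 0.86). For gst-33 (C02A12.1) the intensity was 144, 131 and 120.2 in M24, against 143, 120.2, 120.2 and 92.2 in R24. It was 75.9, 96.3 and 91.4 in M0, against 311, 206 and 260.4 in R0. The 24 hr groups overlapped and the 0 hr groups did not, with a log2 fold change of 0.16 ± 0.17 at 24 hr and -1.55 ± 0.21 at 0 hr (-2.04 and -1.44 within scan days). The difference of enrichment was 1.71 ± 0.26. This probe set is of a type that can match several transcripts, so part of its signal could belong to a related gene. The same holds for the probe sets of gst-16, gst-19 and gstk-2, called members that are described below.

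The product of gst-5 (R03D7.6) can conjugate 4-hydroxynonenal, a product of lipid peroxidation. Intensities of gst-5 were 5556, 4746 and 5755 in M24, against 3880.3, 3586, 4676 and 4362 in R24. In M0 they were 753, 556 and 2286, against 5522, 2639 and 5973 in R0. M0 replicate 3 was close to R0 replicate 2, the dimmest reference array, although the groups did not overlap at 0 hr. At 24 hr every M24 array was above every R24 array. The log2 fold change was 0.38 ± 0.14 at 24 hr and -2.17 ± 0.51 at 0 hr (-2.87 and -3.42 within scan days), and the difference of enrichment was 2.55 ± 0.59. The call at 0 hr was lost without R0 replicate 1 (-2.01), R0 replicate 3 (-1.95), M0 replicate 1 (-1.97) or M0 replicate 2 (-1.76). The call on the difference was lost when any array but M0 replicate 3 or R0 replicate 2 was left out, with values between 2.13 and 2.63.

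**Figure D2:**
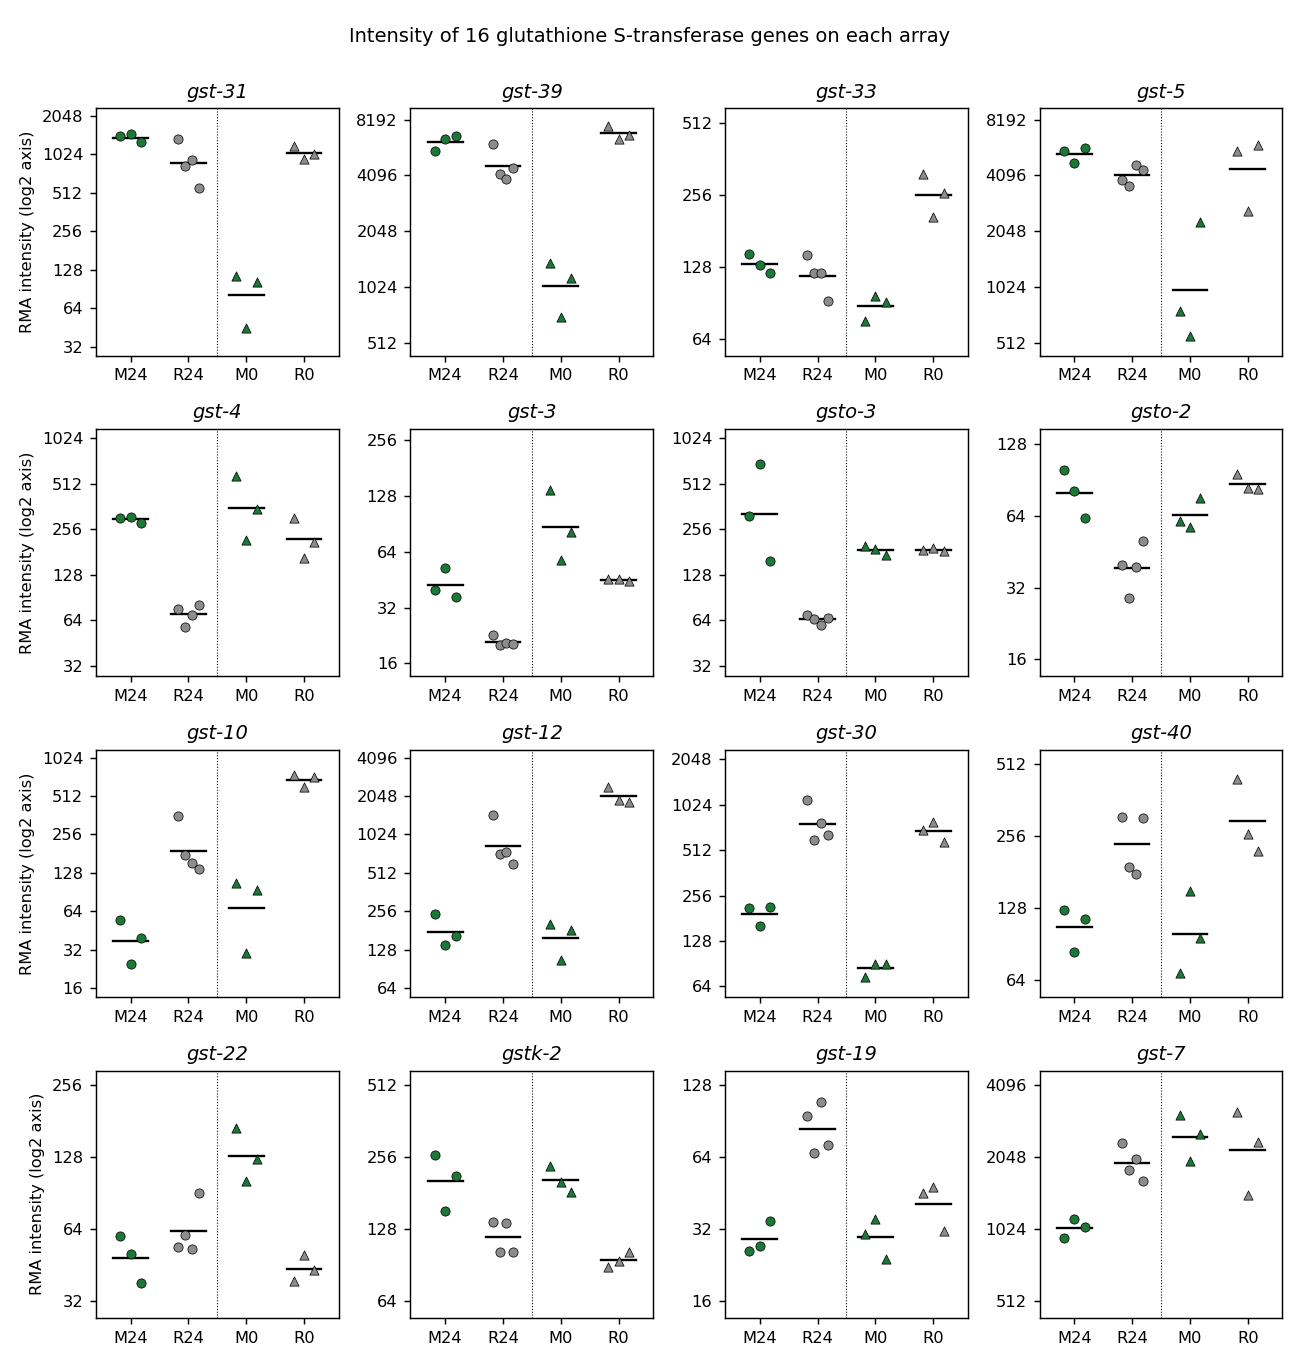
RMA intensity on each array, on log2 axes that differ between panels, for 16 glutathione S-transferase genes, with circles for 24 hr and triangles for 0 hr, muscle in green, reference in grey and a bar at the geometric mean of each group. Every M0 array lies below every R0 array for gst-31, gst-39, gst-33 and gst-5, every M24 array lies above every R24 array for gst-4, and gst-10, gst-12, gst-30 and gst-40 are lower in muscle at both times.

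The reporter gene of oxidative stress, gst-4 (K08F4.7), was called raised in muscle at 24 hr. Its intensity was 306, 308 and 280.2 on the M24 arrays, against 76.2, 57.5, 69.4 and 80.8 on the R24 arrays. On the M0 arrays it was 574, 219 and 346, against 303, 166 and 212 on the R0 arrays. At 24 hr the lowest muscle array was well above the highest reference array, and at 0 hr the groups overlapped. The log2 fold change was 2.08 ± 0.14 at 24 hr, or 4.23-fold, and it was called under each of 14 alternatives. At 0 hr it was 0.68 ± 0.35 (0.92 and 0.05 within scan days), below the fold minimum. The difference of enrichment was 1.40 ± 0.41 and was not called, although without M0 replicate 1 it was (1.76).

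Near gst-4 lie gst-2 and gst-3, the other members of a run of 3 genes in the order gst-3, gst-2 and gst-4. All 3 were called raised at 24 hr and none at 0 hr. For gst-3 (K08F4.11) the intensity was 39.96, 52.4 and 36.6 in M24, against 22.7, 20.1, 20.5 and 20.4 in R24. It was 138, 58.1 and 81.5 in M0, against 45.5, 45.9 and 44.6 in R0. The probe set of gst-3 was above the array median on 4 of the 13 arrays. Muscle was above reference on every array at both times, with a log2 fold change of 1.02 ± 0.15 at 24 hr and 0.94 ± 0.29 at 0 hr (1.60 and 0.38 within scan days), and the difference of enrichment was only 0.08 ± 0.34. For gst-2 (K08F4.6), whose probe set was below the array median on all arrays, the intensity was 21.8, 24.0 and 16.8 in M24, against 11.4, 11.1, 11.9 and 11.03 in R24. At 0 hr the groups overlapped, with 20.8, 15.5 and 15.1 in M0, against 12.9, 25.2 and 14.9 in R0. The log2 fold change of gst-2 was 0.86 ± 0.14 at 24 hr and 0.00 ± 0.27 at 0 hr, and its call at 24 hr was lost without R24 replicate 2 (0.85), M24 replicate 1 (0.83) or M24 replicate 2 (0.76). The members most like gst-4 over the 13 arrays were gst-3 (r = 0.88), gsto-3 (r = 0.80) and gst-43 (r = 0.73), the last of which is a member of the zeta class and was not called at either time.

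Omega class genes gsto-3 and gsto-2 were also called raised in muscle at 24 hr. The intensity of gsto-3 (K10F12.4) was 313, 694 and 158 in M24, against 69.6, 65.1, 59.9 and 66.0 in R24. At 0 hr there was no such gap, with 199, 189 and 173 in M0, against 186, 192 and 185 in R0. M24 arrays were all above R24 arrays but differed widely among themselves, and replicate 3 was the dimmest. In log2 terms the fold change was 2.32 ± 0.44 at 24 hr, or 4.99-fold, and -0.01 ± 0.16 at 0 hr (0.10 and 0.03 within scan days). The call at 24 hr was lost without M24 replicate 1 (2.35) or R24 replicate 2 (2.32), 3 (2.28) or 4 (2.33). The difference of enrichment was 2.33 ± 0.50, and its call was lost when any single array was left out other than M24 replicate 2, M24 replicate 3 or R24 replicate 1, with values between 2.27 and 2.37.

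For gsto-2 (C02D5.3) the intensity was 99.4, 80.8 and 62.3 in M24, against 39.7, 28.9, 38.9 and 50.1 in R24. It was 60.8, 57.1 and 76.0 in M0, against 95.3, 83.2 and 82.5 in R0. Muscle was above reference on every array at 24 hr and below it on every array at 0 hr. Muscle over reference gave a log2 fold change of 1.04 ± 0.23 at 24 hr and -0.44 ± 0.18 at 0 hr (-0.65 and -0.53 within scan days), where it was not called, and the difference of enrichment was 1.47 ± 0.30. The 24 hr call was lost without M24 replicate 1 (0.88) or 2 (1.03) or R24 replicate 1 (1.05), 2 (0.90) or 3 (1.04). The call on the difference was lost without M24 replicate 1 (1.31), R24 replicate 2 (1.33) or 3 (1.48), M0 replicate 1 (1.44) or 2 (1.39), or R0 replicate 1 (1.41) or 3 (1.51). The remaining gene with a gsto symbol, gsto-1, was below the array median on every array and was not called.

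Enzymes with low transcript in muscle at both times included gst-10 (Y45G12C.2), which like gst-5 conjugates 4-hydroxynonenal. Its intensity was 54.6, 24.5 and 39.8 in M24, against 356, 176, 152 and 136 in R24, and it was 107, 30.2 and 94.6 in M0, against 746, 605 and 727 in R0. Every muscle array was below every reference array at each time. On the log2 scale muscle less reference was -2.33 ± 0.40 at 24 hr and -3.36 ± 0.42 at 0 hr (-2.81 and -4.59 within scan days), levels 5.04-fold and 10.2-fold lower in muscle, and the 24 hr call was lost without R24 replicate 2 (-2.37). A further probe set that names gst-10 together with F56A4.3 was called lowered at 0 hr (-2.22 ± 0.34) and not at 24 hr (-0.66 ± 0.16).

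Muscle was low at both times for gst-12 and gst-30 as well. The intensity of gst-12 (F37B1.2) was 246, 139 and 163 in M24, against 1454, 715, 741 and 601 in R24, and it was 203, 107 and 184 in M0, against 2427, 1894 and 1825 in R0. For gst-30 (ZK546.11) it was 213, 161 and 214 in M24, against 1104, 594, 779 and 647 in R24, and 73.9, 89.9 and 90.0 in M0, against 697, 789 and 579 in R0. Muscle arrays were below reference arrays without overlap for both genes. The log2 fold change of gst-12 was -2.22 ± 0.34 at 24 hr and -3.68 ± 0.26 at 0 hr (-3.58 and -4.09 within scan days). That of gst-30 was -1.96 ± 0.24 at 24 hr and -3.02 ± 0.19 at 0 hr (-3.24 and -2.69 within scan days), and gst-30 was called under each of 14 alternatives at each time. Between the 2 times the enrichment differed by 1.02 ± 0.64 for gst-10, 1.46 ± 0.46 for gst-12 and 1.06 ± 0.31 for gst-30, and was called for none of them.

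The fourth gene of this kind, gst-40 (F56B3.10), is the only member with a second probe set of its own. Its intensity was 126, 83.7 and 115 in M24, against 309, 191, 177 and 306 in R24, and 68.7, 151 and 95.9 in M0, against 446, 262 and 222 in R0. Groups did not overlap, and the log2 fold change was -1.16 ± 0.26 at 24 hr and -1.57 ± 0.34 at 0 hr (-2.70 and -0.56 within scan days). The 24 hr call was lost without M24 replicate 1 (-1.28) or 2 (-0.98) or R24 replicate 1 (-1.03), 2 (-1.26) or 4 (-1.04). The second probe set was dimmer and gave -0.16 ± 0.13 at 24 hr and -0.65 ± 0.22 at 0 hr, and was not called, so the 2 probe sets of gst-40 disagree on the call.

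Lowered in muscle at 0 hr and not called at 24 hr were also gst-16, gst-38 and gst-6. The intensity of gst-16 (F37B1.5) was 119.97, 66.6 and 94.9 in M0, against 224, 225 and 180.3 in R0, a log2 fold change of -1.19 ± 0.24 (-0.90 and -1.44 within scan days). That of gst-38 (F35E8.8) was 70.6, 111 and 105 in M0, against 198, 196 and 207 in R0, a change of -1.10 ± 0.21 (-1.49 and -0.91 within scan days). Both groups were apart on every array. At 24 hr they overlapped for either gene, with -0.39 ± 0.19 for gst-16 and 0.16 ± 0.27 for gst-38. The smallest called change at 0 hr was that of gst-6 (F11G11.3), with 22.2, 28.1 and 21.3 in M0, against 51.0, 37.6 and 36.2 in R0, of which 1 array alone was above the array median. Its change of -0.79 ± 0.20 at 0 hr (-1.20 and -0.36 within scan days) was not called once any array except M0 replicate 2 was left out, with values from -0.88 to -0.64, nor with scan day as a fixed block (-0.78 ± 0.25).

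Only gst-22 and gstk-2 were called raised in muscle at 0 hr. For gst-22 (F21H7.1) the intensity was 59.95, 50.5 and 37.9 in M24, against 53.8, 60.2, 52.9 and 90.6 in R24. In M0 it was 170.0, 102 and 126, against 38.7, 49.7 and 43.2 in R0. M0 arrays were all above R0 arrays, whereas the 24 hr groups overlapped. As a log2 fold change this was -0.37 ± 0.24 at 24 hr and 1.57 ± 0.22 at 0 hr, or 2.97-fold (2.14 and 1.24 within scan days). Enrichment at 24 hr less that at 0 hr was -1.94 ± 0.34, which made gst-22 the only member called lower in enrichment at 24 hr than at 0 hr.

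The kappa gene gstk-2 (D2024.7) lay on the same side of the reference at both times. Its intensity was 261, 152 and 214 in M24, against 137, 103, 135 and 102 in R24, and 235, 202 and 183 in M0, against 88.96, 93.9 and 102 in R0. Muscle was above reference on every array at each time. The fit put the log2 fold change at 0.79 ± 0.22 at 24 hr, which was not called, and 1.11 ± 0.18 at 0 hr, which was (1.40 and 0.98 within scan days). Its enrichment differed between the times by -0.33 ± 0.28. Its paralog gstk-1 was called at neither time, although its M0 arrays (66.3, 68.7 and 55.3) were above its R0 arrays (39.4, 42.2 and 46.8).

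Lowered in muscle at 24 hr only were gst-19 and gst-7. The intensity of gst-19 (F37B1.8) was 25.98, 27.2 and 34.4 in M24, against 94.9, 66.6, 109 and 71.7 in R24, and 30.4, 35.2 and 24.0 in M0, against 45.5, 48.0 and 31.4 in R0. The 24 hr groups were apart and the 0 hr groups overlapped, with a log2 fold change of -1.53 ± 0.21 at 24 hr and -0.47 ± 0.23 at 0 hr. For gst-7 (F11G11.2) it was 941, 1133 and 1048 in M24, against 2351, 1818, 2017 and 1626 in R24, and 3069, 1976 and 2564 in M0, against 3164, 1417 and 2371 in R0. Here too the groups were apart at 24 hr and overlapped at 0 hr, with -0.90 ± 0.15 at 24 hr and 0.18 ± 0.30 at 0 hr, and the 24 hr call was lost without M24 replicate 1 (-0.83). Between the 2 times the enrichment differed by -1.06 ± 0.32 for gst-19 and -1.08 ± 0.36 for gst-7, and was not called for either.

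The 25 members called in neither comparison lay between -0.61 and 1.14 at 24 hr and between -1.30 and 0.68 at 0 hr on the log2 scale. The brightest probe set among them was that of gst-1 (R107.7), a pi class enzyme, with 5524, 4826 and 4482 in M24, against 3613, 2818, 2843 and 3709 in R24. Its groups did not overlap at 24 hr, but the change of 0.61 ± 0.15 was under the fold minimum. At 0 hr the intensity of gst-1 was 1542, 858 and 1385 in M0, against 2157, 921 and 1511 in R0, with overlap. The whole family held 8 members with every M24 array above every R24 array (16.8% of all genes did so) and 9 with every M24 array below (12.4%). At 0 hr these counts were 5 with every M0 array above (17.3%) and 17 with every M0 array below every R0 array (15.2%).

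Many of the family sit close together in the genome, and 23 members formed 4 runs in which neighbours were at most 3 coding genes apart. Along the run of gst-26, gst-27, gst-28, gst-29, gst-39, gst-31 and gst-32, all 7 had a positive log2 fold change at 24 hr (0.25 to 1.14) and none was called. At 0 hr all 7 were negative (-3.70 to -0.07), but only gst-39 and gst-31, next to each other among the members, were called. The probe set of gst-28 was above the array median on no array and that of gst-26 on 2. Their 0 hr changes of -0.15 ± 0.21 and -0.07 ± 0.17 were within 1 SE of 0, so these signs carry little. On the other side of gst-31 lies gst-32 (Y53F4B.37), which was below the array median on every array and changed by -0.65 ± 0.22 at 0 hr, without a call. The highest member of the run at 24 hr was gst-29, with 1.14 ± 0.34, singled out after its values were seen.

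The longest run held gst-20, gst-24, gst-15, gst-14, gst-12, gst-16, gst-19, gst-17 and gst-18. Of these 9, gst-12 and gst-19 were called lowered at 24 hr and gst-12 and gst-16 at 0 hr, while the others were called at neither time. In the run of gst-6, gst-7, gst-8 and gst-9, gst-7 was lowered at 24 hr and gst-6 at 0 hr. The short run of gst-3, gst-2 and gst-4 was the only one of the 4 in which every gene was called in the same comparison. Of these genes, gst-2 and gst-3 were dim at 24 hr and were left out by the filter on dim probe sets. Related neighbours can share probe matches, so the members of a run are not independent of each other.

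**Figure D3:**
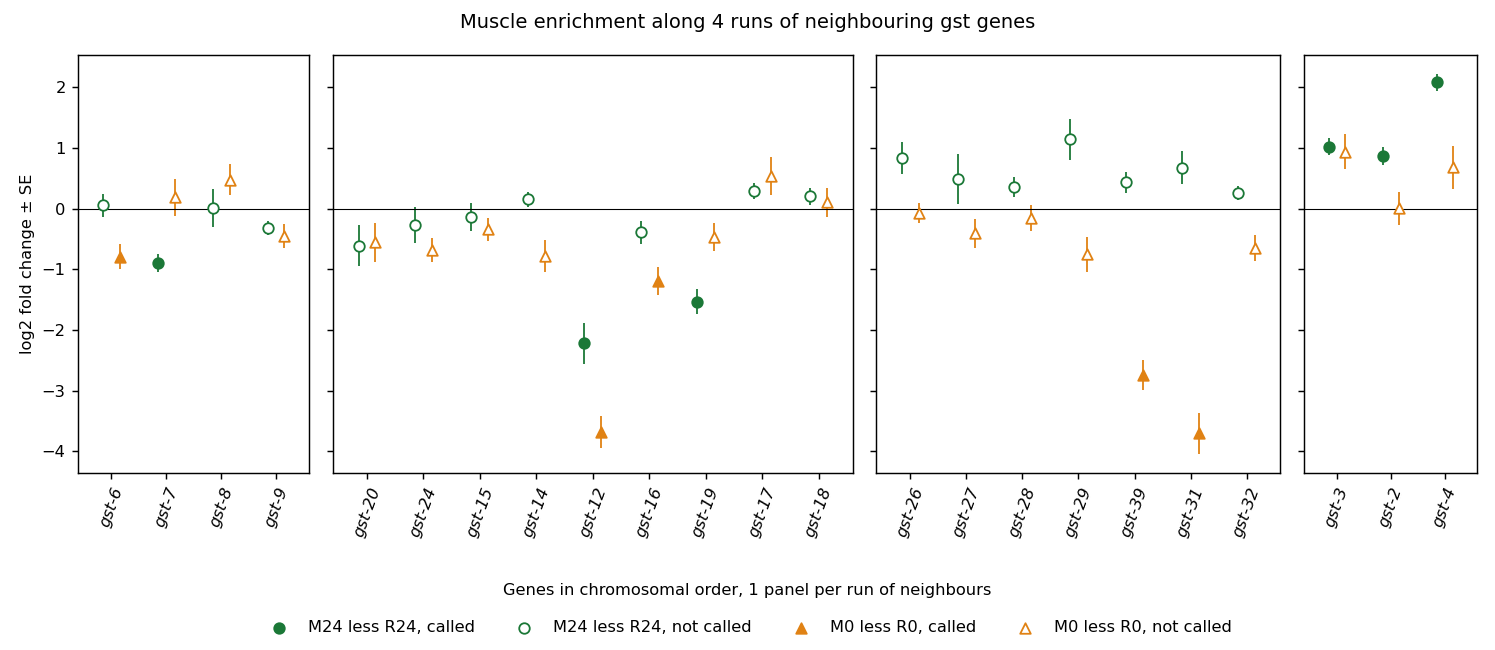
Log2 fold change ± SE along 4 runs of neighbouring gst genes in chromosomal order, with green circles for M24 less R24, orange triangles for M0 less R0 and filled symbols for genes called in that comparison. In the run of 7 genes gst-39 and gst-31 lie far below their neighbours at 0 hr but not at 24 hr, and in the run of 3 genes all are called raised at 24 hr.

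Genes that make, recycle or use glutathione, or that act beside it against oxidants, were followed in 6 lists of 58 genes, of which 52 had a probe set of their own. In M24 against R24, 2 of the 52 were called raised (2.43% of all genes were) and 2 lowered (6% of all genes). In M0 against R0, 2 were called raised (3.95% of all genes) and 6 lowered (8.27% of all genes). The difference of enrichment was called higher for 3 (1.04% of all genes) and lower for none (0.952% of all genes). Each list is given here by its counts, and these genes carry adjusted p-values from limma over all probe sets. The lists too were chosen with earlier results of these data known, so these p-values are no independent test.

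Glutathione is made by gcs-1 and gss-1 and kept reduced by gsr-1, the glutathione reductase. The intensity of gsr-1 was 3653, 3819 and 2227 in M24, against 1356, 1129, 1387 and 2094 in R24, and 396, 227 and 509 in M0, against 1771, 639 and 989.9 in R0. Muscle was above reference on every array at 24 hr and below it on every array at 0 hr. In log2 terms the fold change was 1.11 ± 0.27 at 24 hr (limma adjusted p = 0.0449) and -1.54 ± 0.40 at 0 hr (limma adjusted p = 0.0336, with -2.16 and -2.13 within scan days), and the difference of enrichment was 2.65 ± 0.53 (limma adjusted p = 0.0251). The 24 hr call was lost without M24 replicate 1 (1.01) or 2 (0.97) or R24 replicate 1 (1.08), 2 (0.99) or 3 (1.09). The 0 hr call was lost without M0 replicate 1 (-1.61) or 2 (-1.21) or R0 replicate 1 (-1.15) or 3 (-1.57). Without M24 replicate 1 (2.54), R24 replicate 2 (2.53), M0 replicate 1 (2.73) or 2 (2.32), or R0 replicate 1 (2.27) or 3 (2.69), the difference was no longer called. Neither gcs-1, the rate-limiting enzyme of synthesis, nor gss-1 was called, with 0.44 ± 0.33 and 0.38 ± 0.31 at 24 hr and -0.77 ± 0.42 and -0.11 ± 0.31 at 0 hr.

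Of 8 glutathione peroxidases, which spend glutathione on peroxides, gpx-3 and gpx-5 were called lowered in muscle against reference at 24 hr. The intensity of gpx-5 was 44.7, 36.7 and 38.1 in M24, against 337, 137, 89.8 and 93.7 in R24, and 55.2, 75.3 and 62.1 in M0, against 281, 211 and 216 in R0. Its groups were apart at each time, with a log2 fold change of -1.82 ± 0.45 at 24 hr (limma adjusted p = 0.0471) and -1.88 ± 0.20 at 0 hr (limma adjusted p = 0.000446). The 24 hr call of gpx-5 was lost on leaving out any of the 7 arrays except R24 replicate 1, with values from -2.04 to -1.77. For gpx-3 the change was -1.86 ± 0.40 at 24 hr (limma adjusted p = 0.0308), which was no longer called without M24 replicate 1 (-1.83) or 2 (-1.73) or R24 replicate 2 (-1.87) or 3 (-1.80). In the other direction, gpx-6 was called raised in muscle at 0 hr. Its intensity was 647, 166 and 256 in M0, against 52.0, 36.0 and 45.7 in R0. The log2 fold change was 2.78 ± 0.43 (limma adjusted p = 0.00281, with 3.64 and 1.86 within scan days).

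Among 14 thioredoxins, glutaredoxins and peroxiredoxins, the glutaredoxin glrx-10 was called raised in muscle at 24 hr. Its probe set is of the type that can match several transcripts. Its intensity was 3216, 3262 and 4286 in M24, against 1831, 1386, 1921 and 1973 in R24, a log2 fold change of 1.01 ± 0.17 (limma adjusted p = 0.0149), lost without M24 replicate 1 (1.09). At 0 hr it was not called (-0.25 ± 0.22), and the difference of enrichment was 1.26 ± 0.29 (limma adjusted p = 0.0435). The peroxiredoxin prdx-2 was called lowered in muscle at 0 hr, with 1326, 742 and 1145 in M0, against 3028, 1755 and 2366 in R0. Its log2 fold change was -1.16 ± 0.27 (limma adjusted p = 0.0229, with -1.19 and -1.67 within scan days), and the call was lost without M0 replicate 2 (-0.92) or 3 (-1.23) or R0 replicate 1 (-0.97) or 3 (-1.15). Its difference of enrichment was 1.48 ± 0.34 (limma adjusted p = 0.0497). The calls on the difference were lost on leaving out most single arrays, with values from 1.11 to 1.36 for glrx-10 and from 1.23 to 1.55 for prdx-2. Of 6 superoxide dismutases and catalases none was called in any of the 3 comparisons.

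Conjugates of glutathione leave the cell through ABC transporters of the MRP type, and the list of exporters held 9 measured ABC transporter genes, those named mrp and the half-transporter haf-1. At 0 hr mrp-8 was called raised in muscle, with 196, 126 and 259 in M0, against 63.1, 57.6 and 96.0 in R0. The log2 fold change was 1.40 ± 0.30 (limma adjusted p = 0.0134, with 1.64 and 0.40 within scan days). With scan day as a fixed block it was 1.02 ± 0.30 and no longer called (limma adjusted p = 0.0597). In contrast mrp-5 was called lowered, with 99.2, 124 and 195 in M0, against 336, 307 and 351 in R0. Its log2 fold change was -1.30 ± 0.25 (limma adjusted p = 0.0084). Another exporter, mrp-2, named after its values were seen, was called lowered at 0 hr. Its log2 fold change was -1.22 ± 0.31 (limma adjusted p = 0.0305), and the call was lost without R0 replicate 1 (-1.21), 2 (-1.12) or 3 (-1.31). The probe set of mrp-2 is also of the type that can match several transcripts. None of the 9 was called at 24 hr or in the difference.

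Of 12 regulators of the stress response, only elt-3 was called, in M0 against R0. This GATA factor of the epidermis is known to act with skn-1 on gst-4. It is also on the list of epidermal markers, of which 9 of 15 were lowered in M0. Its intensity was 87.2, 51.9 and 98.2 in M0, against 277, 161 and 182 in R0, a log2 fold change of -1.40 ± 0.29 (limma adjusted p = 0.0124, with -1.67 and -1.81 within scan days). Averaged over all probe sets of the gene it was -0.75 ± 0.20, under the fold minimum and not called. The gene skn-1 itself was called in no comparison. Its M24 arrays spread from 101 to 613, its R24 arrays from 200.03 to 491, and its log2 fold change was -0.33 ± 0.61 at 24 hr and 0.06 ± 0.27 at 0 hr.

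**Figure D4:**
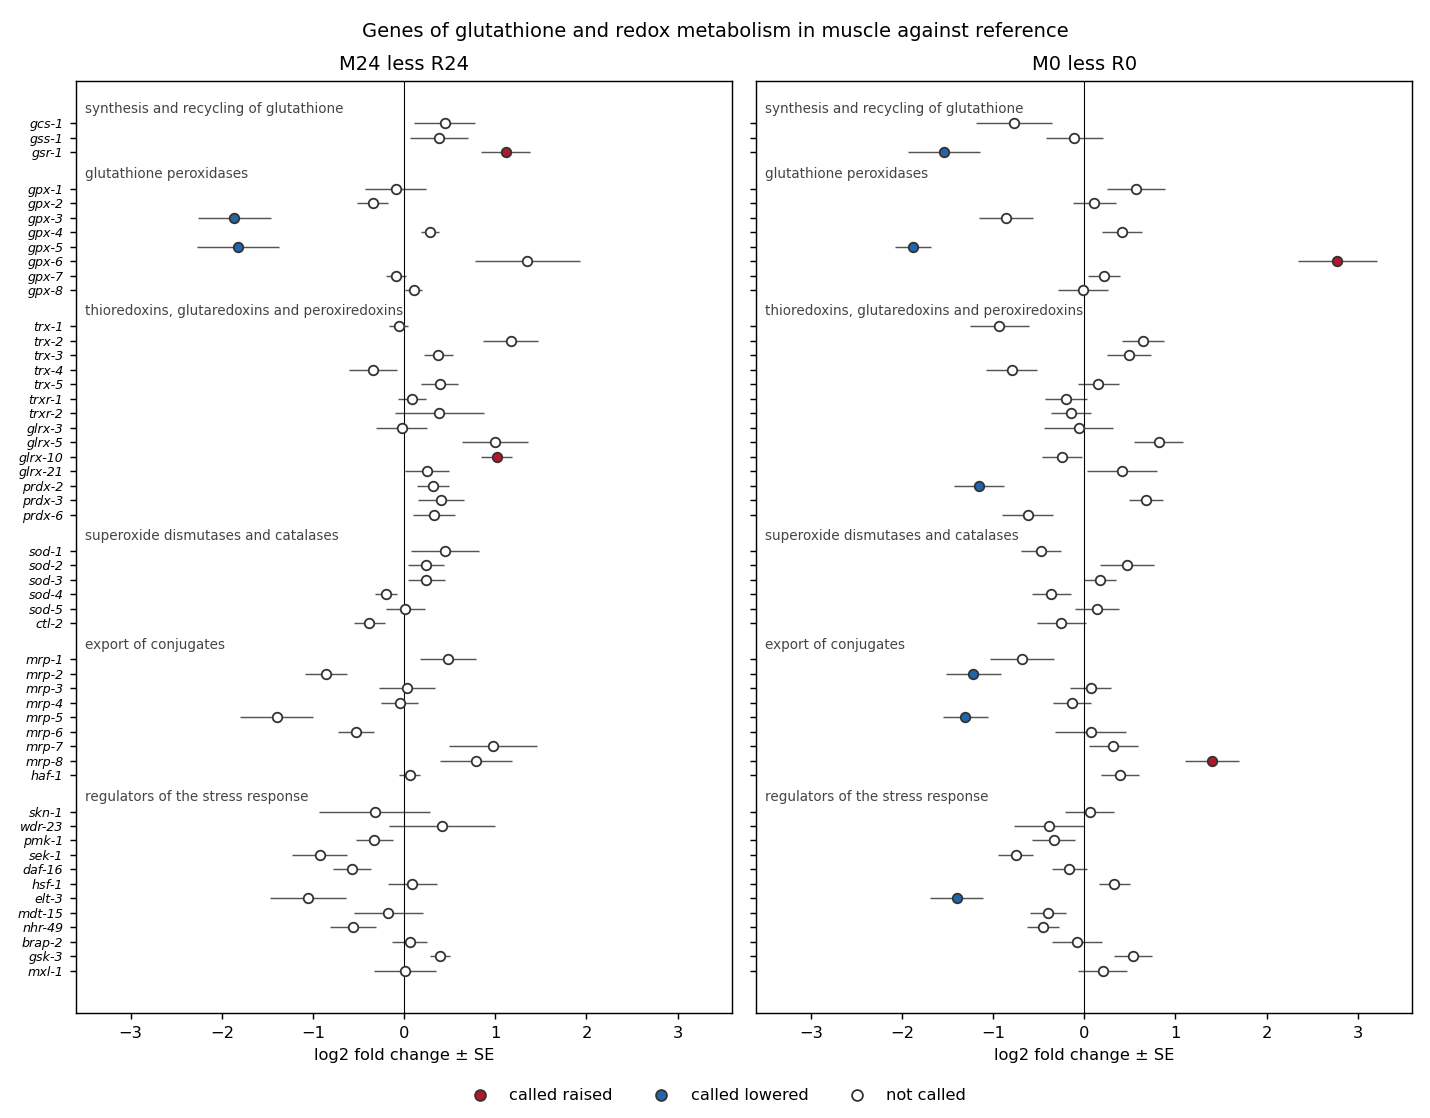
Log2 fold change ± SE of 52 genes of glutathione and redox metabolism, M24 less R24 on the left and M0 less R0 on the right, with red for called raised, blue for called lowered and white for not called. The reductase gsr-1 is to the right of 0 at 24 hr and to the left of it at 0 hr, and skn-1 is not called at either time.

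Markers of other cell types differed in how far they moved with the comparisons. Of 15 epidermal markers, 7 were lowered in M24 and 9 in M0, with a summed intensity of 2403 to 3096 in M24, against 9935 to 13626 in R24, and 2881 to 4499 in M0, against 11320.3 to 12957 in R0. Of 13 neuronal markers 7 were lowered at each time. Among 15 intestinal markers, act-5 and gem-4 were lowered and cpr-1 raised in M24, and gem-4 was lowered in M0. Their summed intensity was 1902 to 2143 in M24, against 1997 to 3278 in R24, and 1026 to 1325 in M0, against 1252 to 1673 in R0. The endoderm factor elt-2 was called at neither time. Of 8 pharyngeal markers 1 was lowered in M24 and 5 in M0, and of 3 coelomocyte markers none was in M24 and 2 were in M0. Of 8 germline markers 1 was lowered at each time and none was raised. RMA gives no value of 0, so no defining marker was at 0. The part of other cell types in the values of the family was not tested.

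At 24 hr the scan day could not be separated from the groups by pairs, since each M24 array had a day of its own and R24 replicates 1 to 3 shared another. With scan day as a random block, 3 of the 45 members remained called raised, namely gst-2, gst-3 and gst-4, and 1 remained called lowered, gst-30. Without M24 replicate 3, the array that stood apart, 8 members were called raised and 6 lowered at 24 hr. At 0 hr, with scan day as a fixed block, which leaves the 2 arrays that had a day to themselves without weight in the difference, 2 members were called raised and 12 lowered. These 12 held 10 of the 11 lowered without the block, and gst-6 was the one lost.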

How the data were processed

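RNA of sorted embryonic cells of C. elegans was measured on 13 arrays in 4 groups given by the labels (M24, R24, M0 and R0), whose arrays are biological replicates per the labels. The authors amplified 100 ng of total RNA in 2 rounds of in vitro transcription. The deposited values are probe-set intensity on a linear scale, made by the authors with RMA (background correction, quantile normalization and probe summary, no version given in the sources used here). Scan day and chip lot came from deposited scanner settings (other text, no measurement), with no such record for R24 replicate 4. Arrays of one time shared at least 55 distinct intensity values in any pair, and arrays of different times at most 1, so the times were taken as separate RMA runs. Present calls were not used here.

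Intensities were log2-transformed without a pseudocount or a filter and tested with limma 3.58.1 in R 4.3.3 (lmFit and eBayes, two-sided, over 22548 probe sets). M24 with R24 and M0 with R0 were fitted on their own arrays, and the difference of enrichment on all 13 with 4 group means. Errors are standard errors (SE) of the fit. The fold minimum of 1.7 is that of the study. A gene was represented by the probe set naming it alone, of highest mean where there were several, which applied to gst-40 only. All 45 members matched the RefSeq gene table (assembly WBcel235), used for names and gene order and not for coordinates, since the build of the array is not given in the sources used here. The table names 49 family genes, and gst-25, gst-34, gst-35 and gst-37 were not analysed here. Members on probe sets that can match several transcripts numbered 8. The number of arrays limits the precision.

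The members, the gene lists and the rule for named genes were chosen with earlier results of these data known. Named are gst-31 and gst-4, every called member, the 3 brightest members, the neighbours of gst-31 and gst-4, the members most like them, and the called genes of each list, at most 2 per comparison. Replicate numbers are shared between the labels of the groups. Deviations from the group means of same-numbered M0 and R0 arrays correlated at 0.216, 0.324 and 0.153. For M24 and R24 the correlations were 0.210, -0.0437 and 0.385. Arrays of unlike number were not compared in this way, so these values do not settle whether the numbers mark pairs. The main fits were unpaired at both times, and the replicate block served as an alternative. Alternatives were quantile normalization over all arrays, a variance trend, a filter on dim probe sets, the mean of all probe sets of a gene, a fit over all 13 arrays, a replicate block, scan day as a block, and leaving out each array. The procedure was tested on simulated data. Python 3.11.15 with matplotlib 3.10.9 drew the plots.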

Additional observations from a re-analysis of the deposited data

Results flagged for a closer look

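For 7 family members the enrichment in muscle at 24 hr differed from that at 0 hr in the fit of the difference itself. It was higher at 24 hr for gst-31 (4.37 ± 0.47 on the log2 scale), gst-39 (3.17 ± 0.32), gst-5 (2.55 ± 0.59), gsto-3 (2.33 ± 0.50), gst-33 (1.71 ± 0.26) and gsto-2 (1.47 ± 0.30), and lower for gst-22 (-1.94 ± 0.34). The family was chosen with these values known, so they are a description. The same fit gave a higher enrichment at 24 hr for 3 genes of glutathione and redox metabolism, gsr-1 (2.65 ± 0.53), glrx-10 (1.26 ± 0.29) and prdx-2 (1.48 ± 0.34). For gst-31, gst-39, gst-5, gst-33, gst-22 and prdx-2, muscle and reference were called different at 0 hr and not at 24 hr. The 24 hr groups of these genes overlapped, except that every M24 array of gst-5 was above every R24 array (0.38 ± 0.14). For gsto-3 and glrx-10 muscle and reference were called different at 24 hr and not at 0 hr, where the groups overlapped. For gsr-1 and gsto-2 the groups were apart in opposite directions at the 2 times, although gsto-2 was not called at 0 hr.

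The R24 group of gst-6 held 1 array apart from the others, replicate 1 at 25.6, while the other 3 had the same value, 22.8, so that its gap was 1.00 of the group's range. The rule that flags such a gap is met by chance in about 5% of groups, a rate that does not hold for tied values like these. In all, 30 genes were examined for a gap in R24, the only group with 4 arrays.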

How the results depend on the processing

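No call on a gene changed direction under any alternative. Counted over genes, comparisons and alternatives, family members kept their call in 391 of 466 cases and lost it in 75, and pathway genes kept it in 158 of 225. At 24 hr, where 5 members were called raised, there were 8 in a fit over all 13 arrays, 1 with the replicate block and 3 with scan day as a random block. Of the 6 lowered members 1 was called with scan day as a random block. For pathway genes at 24 hr, 2 raised became 1 with the replicate block and 0 with scan day, and 2 lowered became 4 after the filter on dim probe sets, 4 in the fit over all 13 arrays, 1 with the replicate block and 0 with scan day. In the difference of enrichment the replicate block left 0 of 1 lower member, and a variance trend left 1 of 3 higher pathway genes. With the replicate block gst-33, gsto-2, gsto-3, gst-22 and glrx-10 lost their calls on the difference and gst-4 gained one (1.47 ± 0.23). At 0 hr the replicate block kept the calls of all members and pathway genes called in the unblocked fit, with 12 lowered members in place of 11. The cause of these changes was not tested.

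Leaving out each array gave 2 to 8 raised and 4 to 6 lowered members at 24 hr, 2 to 3 raised and 9 to 11 lowered at 0 hr, and 3 to 8 higher and 1 lower in the difference. For pathway genes it gave 0 to 7 raised and 0 to 3 lowered at 24 hr, 2 to 3 raised and 4 to 8 lowered at 0 hr, and 0 to 3 higher and 0 lower in the difference. Without M24 replicate 1, the 24 hr calls fell to 2 raised members and 0 raised pathway genes. Calls on dim probe sets rest on little signal over background, since 7 members were above the array median on no array.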
